A study of Mus musculus with 6 samples.

Results

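The mitochondrial ribosomal protein genes encode the proteins of the ribosome that works inside mitochondria, and their mRNA levels are described here in DN3 thymocytes of the mouse. Members were the gene symbols that begin with Mrpl or Mrps followed by a digit and that reached 60 counts over the 6 libraries, a rule that uses abundance but no difference between genotypes. It found 77 members among 24015 gene symbols, all 77 of them over the minimum and all 77 among the 12939 genes tested. The lowest total over the 6 libraries was 2378 counts for Mrpl53 and the highest was 17741 counts for Mrpl12, so no member lay near the minimum and no matching symbol fell under it. By place in the mammalian mitochondrial ribosome, 50 members belong to the large subunit and 26 to the small subunit, while Mrps36 is today known as a subunit of the 2-oxoglutarate dehydrogenase complex and was put in neither.

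RNA was sequenced from thymocytes sorted as CD4-, CD8-, CD44 low and CD25 high, in 2 libraries for each of 3 genotypes. Tcf1-deficient libraries carry the genotype Lck-cre+ Tcf1 fl/fl, in which Cre recombinase expressed under Lck control in the T lineage deletes the floxed gene Tcf7, whose product Tcf1 is a transcription factor of the HMG-box family. p45-deficient libraries carry the genotype p45-/-, which lacks the long isoforms of Tcf1 and leaves the short ones. Control libraries are labelled wild type, with no Cre named. The age, strain, sex and number of animals behind each library, and whether the 2 libraries of a genotype came from separate animals, are unstated in the sources at hand, so p-values measure only the spread between these libraries.

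Library totals ran from 19640524 to 28107031 counts, and the 77 members together took between 0.314% and 0.406% of them. Tcf7 itself stood at 979 and 976 CPM in Tcf1-deficient, 2340 and 2414 CPM in p45-deficient and 2088 and 1810 CPM in control libraries, where CPM expresses counts against the TMM-scaled library total. The Tcf1-deficient libraries lay lowest but kept Tcf7 counts, and the log2 fold change was -1.28 against p45-deficient cells and -0.995 against control cells, of which the second did not pass in edgeR's quasi-likelihood test (adjusted p = 0.0031 and 0.0762) and passed in DESeq2 (adjusted p = 4.61e-12). No gene had a smaller edgeR adjusted p than 0.0762 in Tcf1-deficient against control cells. Of the markers of DN3 cells, Il2ra, Ptcra and Rag1 were present in every library, and erythroid markers were at 0 counts in all 6. Tcf1-deficient replicate 1 stood apart, with Cd4 at 372 CPM and Cd44 at 41.0 CPM, both above each of the other 5 libraries. Control replicate 1 stood apart in B cell markers, summed at 9.52 CPM against 0.239 to 1.89 CPM in the other 5.

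Mitochondria keep a small genome that encodes a few membrane proteins of the respiratory chain, and the mitochondrial ribosome makes those proteins. Its RNA is transcribed inside the organelle, but each of its proteins is encoded in the nucleus, made in the cytosol and imported. The large subunit forms peptide bonds and the small subunit reads the mRNA. Some of its proteins descend from bacterial ribosomal proteins and others were added later in evolution. Known regulators of nuclear genes for mitochondrial proteins include NRF1, YY1 and the ETS-family factor GABP. DN3 thymocytes that pass selection for the T cell receptor beta chain enlarge and divide rapidly.

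Promoters are shown first for 4 members that were higher in p45-deficient than in control cells and that share the ETS word CCGGAAGT. Each line holds the 250 bases before the RefSeq start site on the strand of the gene, 5′ to 3′, in build GRCm38.p6, and capitals mark the ETS word (ACTTCCGG on the opposite strand, as in Mrps18c) and the TCF/LEF word CTTTGAA. Mrpl27 was read from chr11:94653541-94653790 (plus strand), Mrpl51 from chr6:125191950-125192199 (plus), Mrpl18 from chr17:12916092-12916341 (minus) and Mrps18c from chr5:100798509-100798758 (plus).
Mrpl27: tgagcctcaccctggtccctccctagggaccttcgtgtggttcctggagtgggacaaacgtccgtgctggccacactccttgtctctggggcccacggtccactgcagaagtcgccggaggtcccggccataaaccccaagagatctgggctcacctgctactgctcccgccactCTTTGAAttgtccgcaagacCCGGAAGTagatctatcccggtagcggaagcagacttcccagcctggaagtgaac
Mrpl51: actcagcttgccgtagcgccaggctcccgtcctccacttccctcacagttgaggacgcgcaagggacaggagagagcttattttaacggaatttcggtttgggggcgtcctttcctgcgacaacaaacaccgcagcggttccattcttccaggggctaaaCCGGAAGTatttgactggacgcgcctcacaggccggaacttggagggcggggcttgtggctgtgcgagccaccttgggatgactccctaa
Mrpl18: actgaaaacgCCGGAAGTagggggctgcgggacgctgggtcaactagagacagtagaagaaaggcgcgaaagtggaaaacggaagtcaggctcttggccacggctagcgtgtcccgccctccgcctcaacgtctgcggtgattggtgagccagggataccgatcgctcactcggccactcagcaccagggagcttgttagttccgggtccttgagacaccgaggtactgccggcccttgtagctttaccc
Mrps18c: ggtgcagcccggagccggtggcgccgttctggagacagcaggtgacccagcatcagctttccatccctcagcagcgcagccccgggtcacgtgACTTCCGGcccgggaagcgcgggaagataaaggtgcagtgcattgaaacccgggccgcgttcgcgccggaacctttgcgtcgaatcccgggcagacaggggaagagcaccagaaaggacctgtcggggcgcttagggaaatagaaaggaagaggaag

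The ETS word begins 55 bases before the start of Mrpl27, 90 before that of Mrpl51, 240 before that of Mrpl18 and, on the opposite strand, 157 before that of Mrps18c. Mrpl27 also holds the TCF/LEF word, 75 bases before its start. RefSeq promoters covering 250 bases before and 50 after the start were found for 68 of the 77 members, and words were searched on both strands. The ETS word stood in 12 of these 68 genes (17.6%), against 9.01% of the tested genes with a promoter. The YY1 word AAGATGGC also stood in 12 members (17.6%), against 5.33% of tested genes, and the NRF1 core GCGCATGC in 8 members (11.8%), against 6.06%. The TCF/LEF word stood in 6 members (8.82%), against 4.39% of tested genes, and the E-box CACGTG in 5 members (7.35%), against 11.7%. No 2 of these words contain each other. Among members called higher in p45-deficient cells, 12 had a promoter, of which 4 (33.3%) held the ETS word and 0 the NRF1 core. Among the 56 other members with a promoter, 8 (14.3%) held each of these words. The TCF/LEF word stood in 1 of the 12 (8.33%) and in 5 of the 56 (8.93%). The YY1 word stood in 1 (8.33%) and 11 (19.6%), and the E-box in 2 (16.7%) and 3 (5.36%), with no test made for any word. These are matches of letters in a window and say nothing of binding.

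The abundance of the members varied widely. Per kilobase of exon, using exon lengths of GENCODE M21, the small-subunit member Mrps21 had the highest level at 105 CPM per kb over the 6 libraries, followed by the large-subunit members Mrpl33 at 98.0 and Mrpl12 at 95.2 CPM per kb. Mrpl17 at 5.52, Mrps25 at 5.82 and Mrpl1 at 6.02 CPM per kb were lowest. The median level was 32.7 CPM per kb over the 50 large-subunit members and 27.2 CPM per kb over the 26 small-subunit members. These lengths come from another build and annotation than the counts, so the order is approximate.

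Most mitochondrial ribosomal protein genes had higher levels in p45-deficient than in control thymocytes, and a minority of them passed the test. Of the 77 members, 13 rose (16.9%; edgeR quasi-likelihood test, adjusted p under 0.05 over all 12939 genes) and 0 fell, while over all tested genes 8.47% were called higher and 7.55% lower. The median log2 fold change was 0.35 over the 77 members, a median fold of 1.28, and 0.05 over all tested genes. In 72 members (93.5%; 68 under scaling by library totals) the log2 fold change was above 0, against 53.5% of all tested genes. Both p45-deficient libraries lay above both control libraries in 69 members (89.6%), against 37.9% of tested genes, and both lay below in 0 members, against 31.3%. At an unadjusted p under 0.05, 42 members were higher (54.5%), against 18.3% of tested genes, and 0 were lower, against 15.5%.

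**Figure D1:**
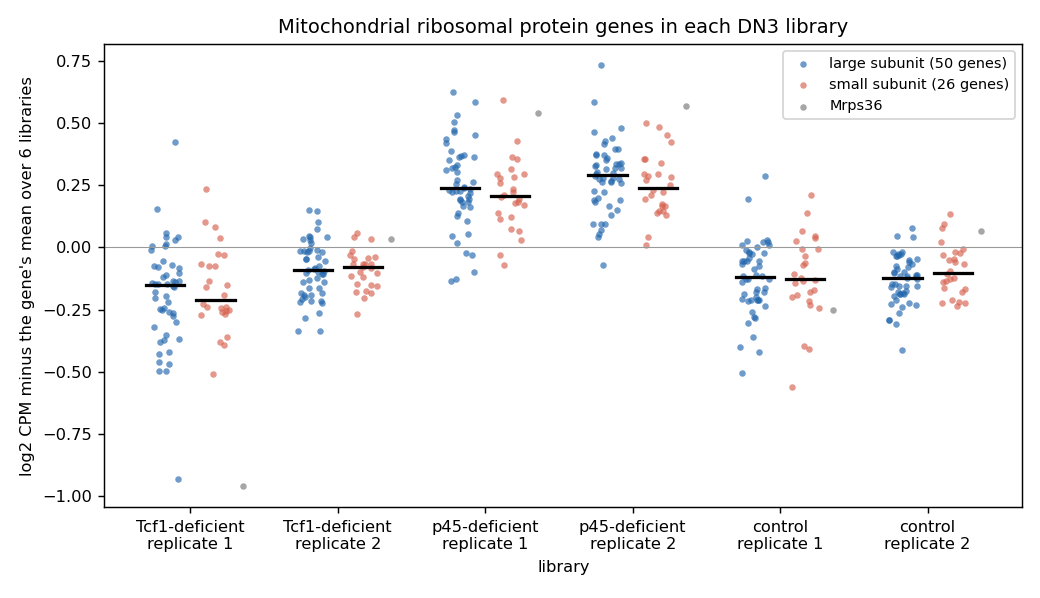
Each point is 1 member in 1 library, as its log2 CPM minus its mean over the 6 libraries on the vertical axis, coloured by subunit, with bars at the median of each subunit. Over all members the median lay at -0.16 and -0.09 in the Tcf1-deficient libraries, at 0.23 and 0.28 in the p45-deficient ones and at -0.13 and -0.12 in the controls.

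With 2 libraries a group these calls depended on the libraries and on the settings. Leaving out control replicate 1, p45-deficient replicate 1 or p45-deficient replicate 2 left 0 members called higher, beside 1.18%, 0.863% and 1.49% of all genes, and leaving out control replicate 2 left 1 (1.3%, beside 1.18%). Leaving out Tcf1-deficient replicate 1 or 2, which belong to neither group, gave 29 (37.7%, beside 14% of all genes) and 37 (48.1%, beside 16.4%). DESeq2 called 24 members higher (31.2%, beside 11.1% of all genes) and 0 lower (beside 12.6%). Scaling by library totals gave 5 (6.49%, beside 5.57% of all genes), a share near that of all genes. The members' median log2 fold change under scaling by library totals was 0.25, with that of all genes at -0.06.

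Markers of dividing cells moved with the members. Summed over Mki67, Top2a, Cdk1 and Ccnb1 they stood at 1312 and 1827 CPM in Tcf1-deficient, 2818 and 2862 CPM in p45-deficient and 1648 and 1449 CPM in control libraries. All 4 had log2 fold changes above 0 in p45-deficient against control cells, with 3 called higher (edgeR, adjusted p under 0.05). In Tcf1-deficient against p45-deficient cells all 4 fell by the same test. Over all tested genes 8.47% were called higher and 7.55% lower in the first comparison, and 5.36% lower in the second. The 3 markers of early progenitors were summed at 79.9 and 59.2 CPM in Tcf1-deficient, 10.3 and 12 CPM in p45-deficient and 60.1 and 63.6 CPM in control libraries, with 1 of 3, Kit, called lower in p45-deficient against control cells. The 4 B cell markers were summed at 1.89 and 0.874 CPM in Tcf1-deficient, 0.404 and 0.239 CPM in p45-deficient and 9.52 and 1.07 CPM in control libraries, and 1 of the 2 tested, Cd79a, was called lower in p45-deficient against control cells. The 4 dendritic cell markers were summed at 85.1 and 10.03 CPM in Tcf1-deficient, 17.2 and 15.6 CPM in p45-deficient and 67.4 and 25.1 CPM in control libraries, with 0 of 3 tested called. The 6 DN3 markers were summed at 3797 and 6053 CPM in Tcf1-deficient, 6199 and 5773 CPM in p45-deficient and 6000 and 5151 CPM in control libraries, and 2 of them, Ptcra and Rag1, were called lower in Tcf1-deficient against p45-deficient cells. The part of these markers in the members' levels was not tested. In bulk RNA, fewer cells of a type and less RNA per cell cannot be told apart.

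Among large-subunit members with a bacterial counterpart, Mrpl27, the counterpart of a protein that in bacteria reaches the peptidyl transferase centre, had 24.9 and 23.5 CPM in Tcf1-deficient, 40.6 and 49.4 CPM in p45-deficient and 26.1 and 22.3 CPM in control libraries. The p45-deficient libraries stood well above the other 4, which overlapped each other. Mrpl27 was the member with the highest fold change in p45-deficient against control cells, a log2 fold change of 0.90 ± 0.16 (SE, n = 2 libraries each; edgeR quasi-likelihood test, adjusted p = 0.0142). Mrpl18, a protein of the central protuberance of the large subunit, had 87.7 and 75.8 CPM in Tcf1-deficient, 113.5 and 116.4 CPM in p45-deficient and 71.5 and 75.5 CPM in control libraries. Again both p45-deficient libraries were highest, with a log2 fold change over control of 0.65 ± 0.12 (SE; edgeR adjusted p = 0.0162). Mrpl20, the counterpart of a bacterial protein needed early in assembly of the large subunit, had 34.3 and 37.3 CPM in Tcf1-deficient, 52.7 and 53.0 CPM in p45-deficient and 35.2 and 36.7 CPM in control libraries. The p45-deficient values were nearly equal and no other library came near them, and the log2 fold change over control was 0.56 ± 0.12 (SE; edgeR adjusted p = 0.0269). Mrpl14, to which an assembly factor of the large subunit binds, rose by a log2 fold change of 0.58 (edgeR adjusted p = 0.0325), and Mrpl30 by 0.48 (edgeR adjusted p = 0.04). Mrpl15, the call with the largest p and named after its values were seen, rose by 0.46 (edgeR adjusted p = 0.0483).

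Among large-subunit members found only in mitochondrial ribosomes, Mrpl51 had 55.5 and 52.9 CPM in Tcf1-deficient, 79.1 and 82.1 CPM in p45-deficient and 53.5 and 52.6 CPM in control libraries. The other 4 libraries lay within a narrow band below both p45-deficient ones, and the log2 fold change over control was 0.60 ± 0.11 (SE, n = 2 libraries each; edgeR adjusted p = 0.0159). Mrpl50 rose by a log2 fold change of 0.60 (edgeR adjusted p = 0.0275), Mrpl46 by 0.61 (edgeR adjusted p = 0.0285) and Mrpl40 by 0.58 (edgeR adjusted p = 0.0366). In all, 6 of 30 large-subunit members with a bacterial counterpart (20%) and 4 of 20 counted as without one (20%) passed. Over all tested genes 8.47% were called higher. Median log2 fold changes were 0.44 and 0.36.

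In the small subunit, Mrps14, a protein of the head of the subunit, had 49.4 and 50.9 CPM in Tcf1-deficient, 75.9 and 79.9 CPM in p45-deficient and 42.4 and 49.8 CPM in control libraries. The p45-deficient libraries were the 2 highest, and the log2 fold change over control was 0.76 ± 0.13, the smallest p among the members (SE, n = 2 libraries each; edgeR adjusted p = 0.0121). Mrps18c had 23.5 and 26.8 CPM in Tcf1-deficient, 42.3 and 38.4 CPM in p45-deficient and 19.0 and 25.1 CPM in control libraries, and rose by a log2 fold change of 0.87 ± 0.18 (SE; edgeR adjusted p = 0.0212). Its paralogs Mrps18a, which sits in the large subunit, and Mrps18b, which shares the small subunit with it, had log2 fold changes of 0.29 and 0.20 that did not pass (edgeR adjusted p = 0.157 and 0.353). Mrps7, the counterpart of a bacterial protein that organises the head of the small subunit, rose by 0.50 (edgeR adjusted p = 0.0414). Thus 3 of 16 small-subunit members with a bacterial counterpart (18.8%) passed, and 0 of 10 counted as without one. Over all tested genes 8.47% were called higher. Mrps18a and Mrps18b were counted as without a counterpart, though they are paralogs of Mrps18c, which was counted with one. Median log2 fold changes were 0.34 and 0.29.

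**Figure D2:**
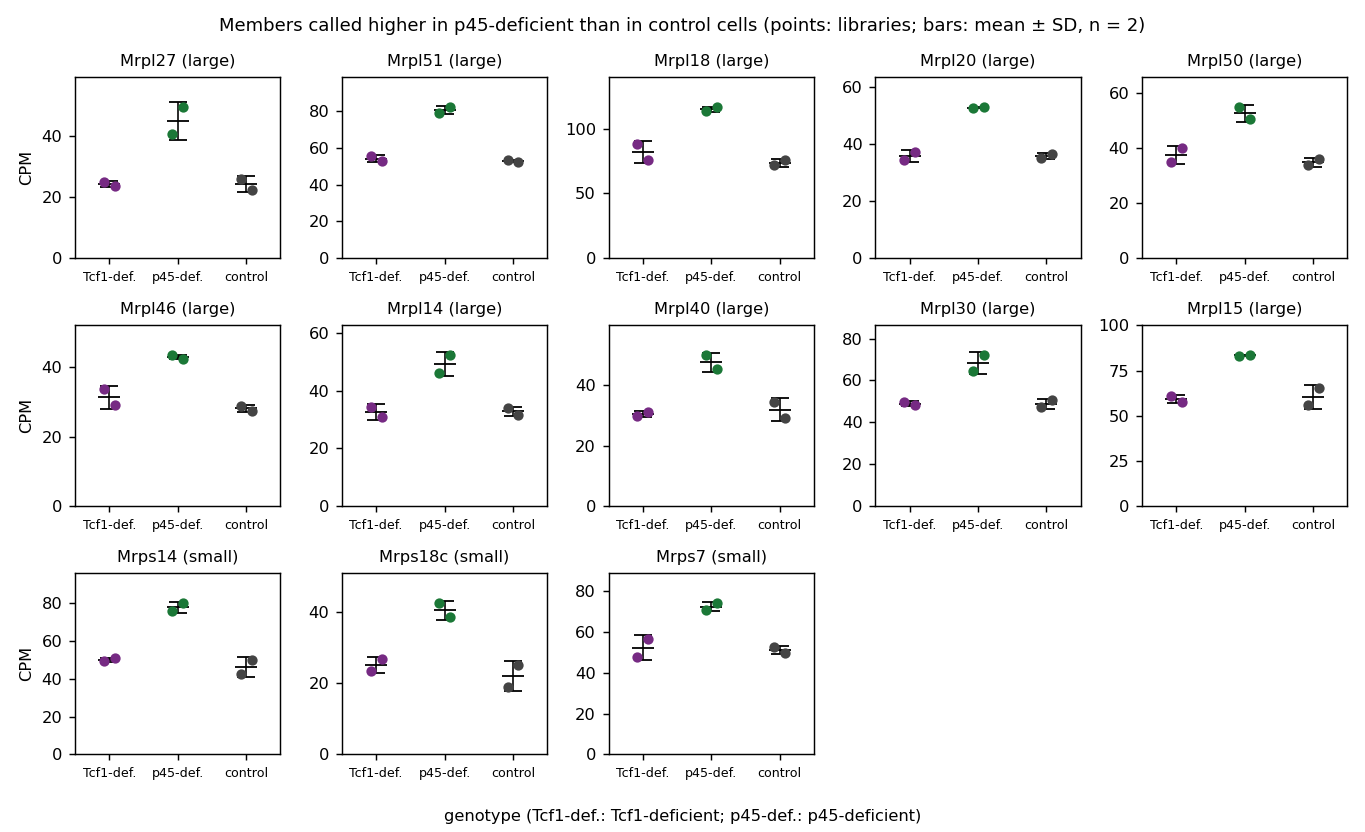
Each panel is 1 of the 13 members called higher in p45-deficient than in control cells, with CPM on the vertical axis from 0, points for libraries and bars for the mean ± SD of 2 libraries. In Mrpl27, for example, the Tcf1-deficient points lie at 24.9 and 23.5 CPM, the p45-deficient points at 40.6 and 49.4 and the control points at 26.1 and 22.3.

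Exons of 16 members overlap those of another gene found by symbol among the counted genes, and no source at hand says whether the counting used strand. They include 3 of the called members, Mrpl27 with Eme1, Mrpl18 with Tcp1 and Mrps7 with Gga3 and Mif4gd, which makes their counts less certain. The other 10 called members have no such overlap. Matching by symbol missed Mrpl43, which was not called and is not among the 16. Its exons overlap those of Twnk, counted here under the symbol Peo1, over 27.5% of their length.

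The 3 members with the highest CPM in the large subunit were Mrpl12, Mrpl9 and Mrpl18 and those in the small subunit were Mrps5, Mrps33 and Mrps7, of which Mrpl18 and Mrps7 passed, as above. Mrpl12, a protein of the stalk of the large subunit that also binds the mitochondrial RNA polymerase, had 128.5 and 116.9 CPM in Tcf1-deficient, 134.3 and 140.1 CPM in p45-deficient and 117.7 and 114.4 CPM in control libraries. The p45-deficient libraries were highest here too, by a log2 fold change over control of 0.24 that did not pass (edgeR adjusted p = 0.177). Mrpl9 had a log2 fold change of 0.24, Mrps33 of 0.55 and Mrps5 of 0.16 (edgeR adjusted p = 0.176, 0.0708 and 0.366). Mrps30, a large-subunit member despite its symbol, had 0.16 (edgeR adjusted p = 0.408). Across the 77 members, Spearman's rho of the log2 fold change was -0.22 with the mean CPM and -0.03 with exon length, given as a description of genes that share the same 6 libraries.

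A large fold change alone did not give a call. Mrpl32, a zinc-binding protein matured by a mitochondrial protease, had 16.5 and 25.7 CPM in Tcf1-deficient, 33.7 and 31.5 CPM in p45-deficient and 16.4 and 21.4 CPM in control libraries. Its log2 fold change over control of 0.79 ± 0.24 did not pass (SE, n = 2 libraries each; edgeR adjusted p = 0.0664). At the other end, 5 members had log2 fold changes below 0: Mrpl4 and Mrpl38 at -0.11, Mrpl24 at -0.08, Mrpl52 at -0.03 and Mrps34 at -0.02, the last named after its value was seen. None of these 5 passed (edgeR adjusted p between 0.622 and 0.953), and the control libraries overlapped the p45-deficient ones in each.

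**Figure D3:**
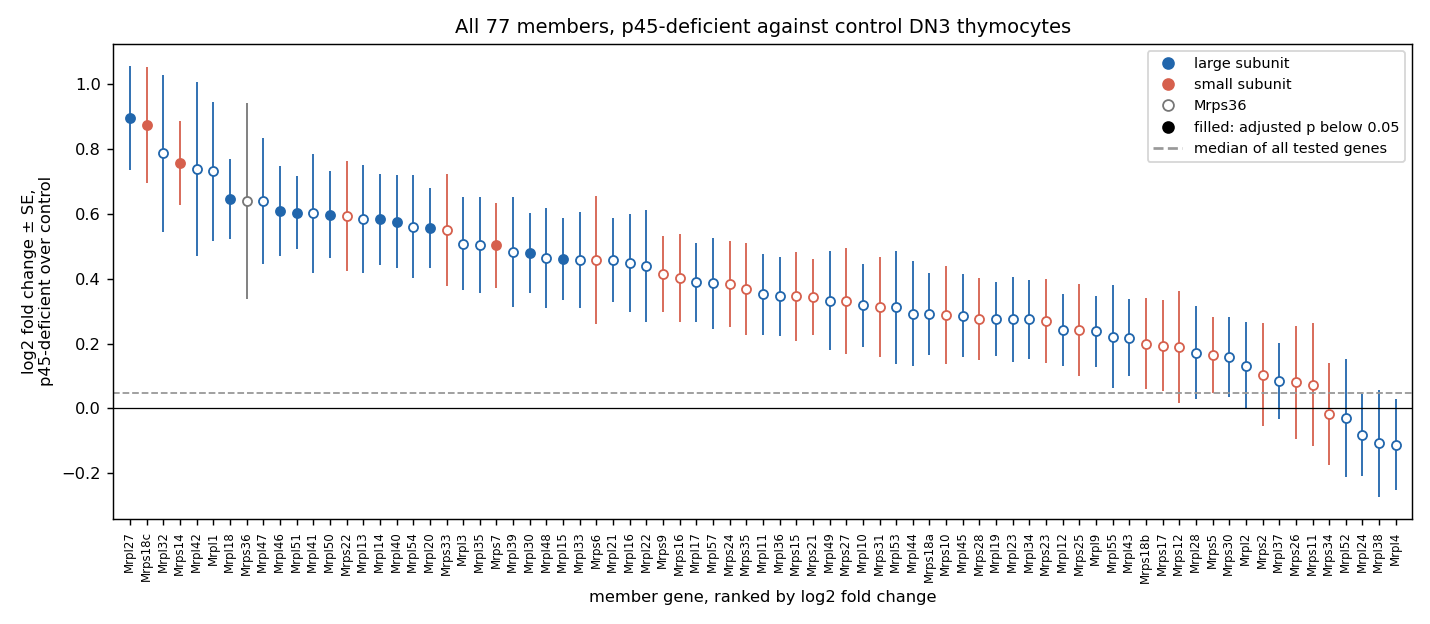
All 77 members are ranked along the horizontal axis by their log2 fold change in p45-deficient over control cells, shown on the vertical axis with bars of 1 SE, coloured by subunit and filled where the adjusted p was under 0.05. The values run from 0.90 for Mrpl27 to -0.11 for Mrpl4, and filled points lie between 0.46 and 0.90, among open ones; the dashed line is the median of all tested genes, 0.05.

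Most members had lower levels in Tcf1-deficient than in p45-deficient thymocytes, a comparison that uses the same p45-deficient libraries as the one above and so is not a second, separate observation of them. It is also the direct test of whether the 2 mutants differ. Of the 77 members, 11 fell (14.3%) and 0 rose, while 5.36% of all tested genes were called lower and 5.05% higher (edgeR, adjusted p under 0.05). The median log2 fold change was -0.41 over the members and -0.01 over all tested genes. Both Tcf1-deficient libraries lay below both p45-deficient ones in 63 members (81.8%), against 33.3% of tested genes, and above in 0 members, against 27.7%. At an unadjusted p under 0.05, 48 members were lower (62.3%), against 16.8% of tested genes, and 0 were higher, against 14.3%. Log2 fold changes lay above 0 in 2 members (2.6%; 5 under scaling by library totals), against 49% of tested genes: Mrpl52 at 0.29 and Mrpl24 at 0.01, of which neither passed (edgeR adjusted p = 0.312 and 0.97).

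In this comparison 7 members passed that had also passed in p45-deficient against control cells, namely Mrpl27, Mrpl51, Mrps14, Mrpl20, Mrpl40, Mrpl14 and Mrpl18. Their log2 fold changes in Tcf1-deficient against p45-deficient cells ran from -0.89 for Mrpl27 to -0.49 for Mrpl18 (edgeR adjusted p = 0.0204 and 0.0461). A further 4 passed here and not against control. Mrpl35 had 27.1 and 32.1 CPM in Tcf1-deficient, 47.3 and 43.6 CPM in p45-deficient and 30.3 and 33.8 CPM in control libraries, a log2 fold change of -0.62 against p45-deficient cells (edgeR adjusted p = 0.0426). Mrps33 had 41.7 and 56.8 CPM in Tcf1-deficient, 75.9 and 83.2 CPM in p45-deficient and 50.2 and 58.4 CPM in control libraries, and -0.69 (edgeR adjusted p = 0.0483). In both, the Tcf1-deficient and control values overlapped and lay under the p45-deficient ones. In Mrpl19 and Mrpl23, a protein at the exit of the peptide tunnel, Tcf1-deficient libraries lay lowest and control libraries in between. Mrpl19 had 46.8 and 49.9 CPM in Tcf1-deficient, 67.1 and 67.9 CPM in p45-deficient and 55.6 and 55.9 CPM in control libraries, with a log2 fold change of -0.48 (edgeR adjusted p = 0.0425), and Mrpl23 had -0.52 (edgeR adjusted p = 0.0497). Exons of Mrpl19 overlap those of Gcfc2 over 39.2% of their length.

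These calls too rested on few libraries. Leaving out p45-deficient replicate 1 or 2 left 0 members called lower, beside 0.384% and 0.734% of all genes, and leaving out control replicate 1 or 2 left 1 each (1.3%, beside 1.87% and 1.83%). Leaving out Tcf1-deficient replicate 1 or 2 gave 6 (7.79%, beside 3.99% of all genes) and 34 (44.2%, beside 13.2%), and a fit to the 4 libraries alone gave 0, beside 1.55%. DESeq2 called 26 members lower (33.8%, beside 9.09% of all genes) and 0 higher (beside 10.6%). Scaling by library totals gave 4 (5.19%, beside 3.73% of all genes), again near the share of all genes. The SD of the log2 ratio between the 2 libraries of a genotype, over the members, was 0.27 in Tcf1-deficient, 0.11 in p45-deficient and 0.18 in control cells.

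The widest difference between libraries of a genotype was in Mrps36, with 19.2 and 38.2 CPM in Tcf1-deficient, 54.4 and 55.4 CPM in p45-deficient and 31.4 and 39.0 CPM in control libraries. The large-subunit member Mrpl42 was similar, with 28 and 52.9 CPM in Tcf1-deficient, 82.6 and 80.1 CPM in p45-deficient and 47.8 and 49.8 CPM in control libraries. In both genes Tcf1-deficient replicate 1 was the lowest library and replicate 2 lay among or just above the controls. Mrpl42 had the lowest log2 fold change of any member in Tcf1-deficient against p45-deficient cells, -1.01 ± 0.27, without passing (SE, n = 2 libraries each; edgeR adjusted p = 0.0594).

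Between Tcf1-deficient and control thymocytes 0 of the 77 members were called in either direction, and the same held for all 12939 tested genes (edgeR, adjusted p under 0.05). At an unadjusted p under 0.05, 0 members passed, against 7.91% of tested genes (1024 genes). DESeq2 called 0 members, and 79 genes higher (0.662%) and 66 lower (0.553%) among the 11935 genes to which it gave an adjusted p. The median log2 fold change was -0.02 over the members and 0.01 over all tested genes, and 34 members (44.2%) lay above 0, against 51.2% of tested genes. The libraries did not overlap in 6 members that were higher (7.79%, against 16.4% of tested genes) and in 7 that were lower (9.09%, against 18% of tested genes). The highest log2 fold changes were 0.34 for Mrpl33, 0.26 for Mrpl52 and 0.19 for Mrps18c, and the lowest were -0.30 for Mrpl38, -0.30 for Mrps36 and -0.27 for Mrpl42. The median SE of a member's log2 fold change was 0.14, so small differences were not detectable with these libraries. Without Tcf1-deficient replicate 2, which leaves replicate 1 alone to stand for the genotype, Mrpl42 and Mrps36 had log2 fold changes of -0.81 and -0.89.

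Members of both subunits passed in the same direction. In p45-deficient against control cells, 10 of 50 large-subunit members (20%) and 3 of 26 small-subunit members (11.5%) rose, beside 8.47% of all tested genes. Median log2 fold changes were 0.41 and 0.32. In Tcf1-deficient against p45-deficient cells, 9 of 50 large-subunit (18%) and 2 of 26 small-subunit members (7.69%) fell, beside 5.36% of all tested genes. Medians were -0.42 and -0.34. In both comparisons the small-subunit share called lay near that of all genes. In Tcf1-deficient against control cells the medians were -0.01 and -0.02. These differences between the subunits were not tested, since members are not replicates.

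The summed level of the large subunit was 2158 and 2247 CPM in Tcf1-deficient, 2817 and 2892 CPM in p45-deficient and 2211 and 2203 CPM in control libraries. That of the small subunit was 984 and 1021 CPM in Tcf1-deficient, 1255 and 1298 CPM in p45-deficient and 1009 and 1019 CPM in control libraries. Both sums were highest in the p45-deficient libraries. The ratio of the large to the small sum was 2.19 and 2.20 in Tcf1-deficient, 2.24 and 2.23 in p45-deficient and 2.19 and 2.16 in control libraries. It was thus slightly higher in both p45-deficient libraries than in the other 4, by 0.04 on the log2 scale over control, where the pooled SD between libraries of a genotype was 0.00912. With 2 libraries against 2 an exact permutation test cannot go below p = 0.333, so none is given.

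**Figure D4:**
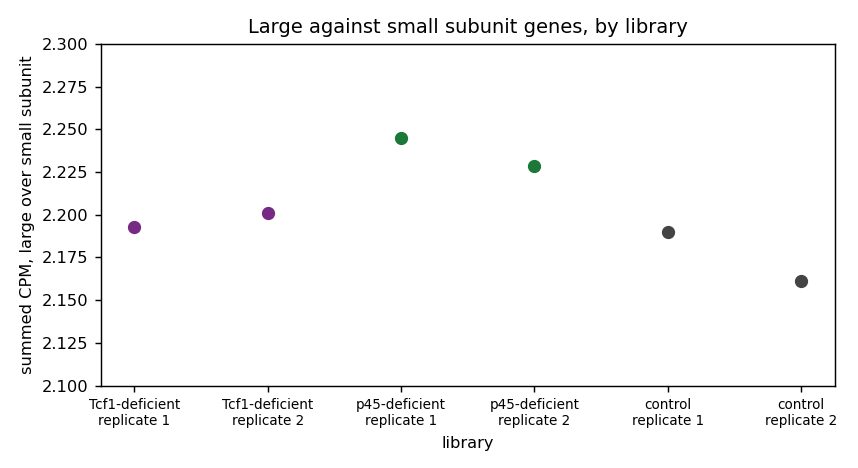
Each point is 1 library and gives its summed CPM of the 50 large-subunit members over that of the 26 small-subunit members, on an axis that runs from 2.1 to 2.3 and not from 0. The Tcf1-deficient libraries lie at 2.19 and 2.20, the p45-deficient ones at 2.24 and 2.23 and the controls at 2.19 and 2.16.

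Other genes of mitochondrial translation were examined as lists. Among 6 further subunits that carry other symbols, Ict1, a peptidyl-tRNA hydrolase built into the large subunit, had 52.9 and 60.6 CPM in Tcf1-deficient, 79.4 and 96.5 CPM in p45-deficient and 58.3 and 52.1 CPM in control libraries. It rose in p45-deficient against control cells by a log2 fold change of 0.67, and the small-subunit proteins Aurkaip1 and Chchd1 rose by 0.59 and 0.53 (edgeR adjusted p = 0.0263, 0.0297 and 0.0313). Dap3, Ptcd3 and Gadd45gip1 did not pass, and the median of the 6 was 0.46. Thus 3 of 6 were called higher (50%), beside 8.47% of all tested genes. Against p45-deficient cells, Ict1 and Aurkaip1 fell in Tcf1-deficient cells by 0.63 and 0.54 (edgeR adjusted p = 0.0409 and 0.0476). These were 2 of 6 (33.3%), beside 5.36% of all tested genes called lower.

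In p45-deficient against control cells 0 of 17 translation factors and 0 of 24 genes of ribosome assembly and rRNA modification passed. Their median log2 fold changes were 0.16 and 0.12. Over all tested genes 8.47% were called higher and 7.55% lower. The list of mitochondrial transcription and DNA and that of nuclear regulators each had 1 of 9 called higher and 1 lower. These shares, 11.1% each way, were near those of all genes. The 20 mitochondrial tRNA synthetase genes had a median of 0.18, and among them Cars2, for cysteine, fell by 0.78 (edgeR adjusted p = 0.0182). Of 9 genes of mitochondrial transcription and DNA, Tfam, the HMG-box protein that packages mitochondrial DNA and starts its transcription, had 82.7 and 85.4 CPM in Tcf1-deficient, 106.4 and 107.0 CPM in p45-deficient and 68.8 and 68.9 CPM in control libraries, and rose by 0.63 (edgeR adjusted p = 0.0117). Peo1, the helicase Twinkle that opens mitochondrial DNA for replication, fell by 0.76 (edgeR adjusted p = 0.0178). Of 9 tested nuclear regulators, Gabpb1, a subunit of the ETS-family factor GABP, rose by 0.50, and Pprc1, a coactivator related to PGC-1, fell by 0.57 (edgeR adjusted p = 0.03 and 0.0366); Nrf1, Gabpa, Yy1 and Myc did not pass. In Tcf1-deficient against p45-deficient cells Tefm, an elongation factor of mitochondrial transcription, fell by 1.08 (edgeR adjusted p = 0.0325). Polg2, a subunit of the mitochondrial DNA polymerase, rose by 0.99 in that comparison (edgeR adjusted p = 0.0491). Each was 1 of 9 in its direction (11.1%), beside 5.36% of all tested genes called lower and 5.05% higher.

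**Figure D5:**
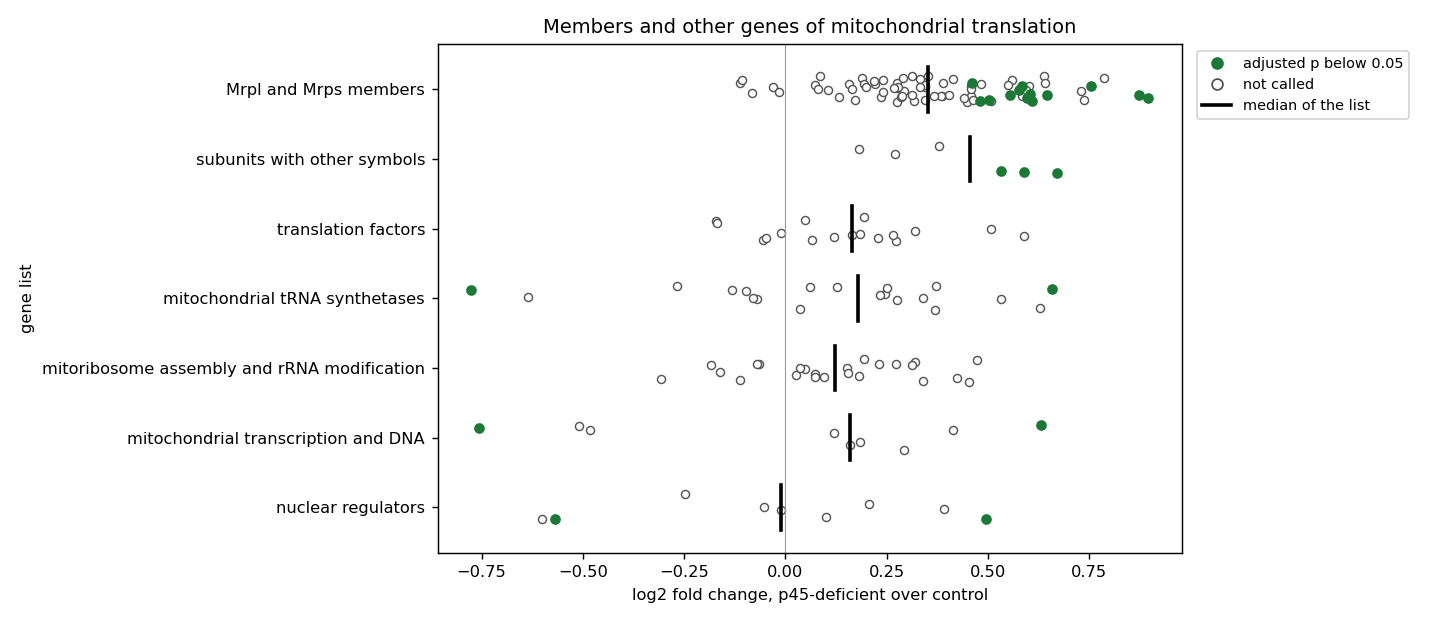
Each point is 1 gene, placed by its log2 fold change in p45-deficient over control cells and grouped by list, with filled points for adjusted p under 0.05 and a bar at the median of the list. The medians of the members (0.35) and of the 6 subunits with other symbols (0.46) lie to the right of those of the other 5 lists, which run from -0.01 to 0.18.

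Genes for proteins of the cytosolic ribosome were set beside the members. Of 83 tested, 5 rose in p45-deficient against control cells (6.02%, beside 8.47% of all tested genes), with a median log2 fold change of 0.29. Log2 fold changes lay above 0 in 80 of the 83, against 53.5% of tested genes. In Tcf1-deficient against p45-deficient cells 3 fell (3.61%, beside 5.36% of all tested genes), with a median of -0.26. There 5 of the 83 lay above 0, against 49% of tested genes. The shift of most genes in 1 direction was thus not particular to the members. The difference between these genes and the members was not tested.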

How the data were processed

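RNA of sorted DN3 thymocytes was sequenced in 6 libraries, grouped by the genotype in their labels. The deposited files hold raw read counts per gene symbol, as the authors counted them. The submitters' processing notes name TopHat2, featureCounts 1.5.0-p3, DESeq2 3.4 and build mm9, without roles, and the annotation and strand setting used are unstated in the sources at hand.

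From these counts, differences were tested in R 4.3.3 by edgeR 4.0.16 (filterByExpr, TMM scaling, robust quasi-likelihood fit of 1 mean per group to all 6 libraries, 3 residual degrees of freedom, two-sided F tests, Benjamini-Hochberg adjustment over 12939 genes within each comparison). SEs were taken from the F statistic. DESeq2 1.42.0, other scalings, no filter, 2-group fits, a replicate term and left-out libraries were alternatives.

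Named members are up to 12 called per comparison by smallest p, the 3 highest and 3 lowest log2 fold changes, the most abundant, and Mrps18a, Mrps30, Mrps36 and Mrpl12. Mrps18b was added beside its paralogs after its values were seen. The members and gene lists were chosen with earlier results of these data known. A gene of the tRNA synthetase list is not reported here.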

Additional observations from a re-analysis of the deposited data

How the results depend on the processing

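Members with log2 fold changes above 0 in p45-deficient against control cells numbered 68 to 74 in every setting run. Members called higher there numbered 13 (beside 8.47% of all genes), against 5 with library totals (5.57%), 8 with upper-quartile scaling (6.34%), 24 with DESeq2 (11.1%), 29 with only the 2 groups fitted (15.2%) and 0 to 37 without single libraries (0.863% to 16.4%). Members called lower in Tcf1-deficient against p45-deficient cells numbered 11 (beside 5.36% of all genes), against 5 with DESeq2's size factors (4.2%), 4 with library totals (3.73%), 4 with upper-quartile scaling (4.09%), 26 with DESeq2 (9.09%), 0 with only the 2 groups fitted (1.55%) and 0 to 34 without single libraries (0.384% to 13.2%). With library totals the members' shares were near those of all genes. They were 6.49% called higher in p45-deficient against control cells and 5.19% called lower in Tcf1-deficient against p45-deficient cells. Over the settings run, the log2 fold change of Mrpl52 in Tcf1-deficient against p45-deficient cells ran from 0.0718 to 0.513. The 16 members found to overlap another gene were also left out, a choice made after seeing the data. That left 10 members called higher in p45-deficient against control cells, beside 8.47% of all genes. It left 8 called lower in Tcf1-deficient against p45-deficient cells, beside 5.36%. Replicate numbers did not pair libraries (correlations of same-numbered deviations -0.03, -0.05 and -0.01). With a replicate block 8 members were called higher in p45-deficient against control cells, beside 6.54% of all genes. In Tcf1-deficient against p45-deficient cells that block left 4 called lower, beside 3.51%. The cause of these differences was not tested.

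For p45-deficient against control cells the median log2 fold change of the large subunit (0.41) was 0.37 with DESeq2's size factors, 0.31 with library totals, 0.34 with upper-quartile scaling, 0.37 with DESeq2, 0.36 without a filter, 0.36 with 2 groups and 0.34 to 0.42 without single libraries, and that of the small subunit (0.32) was 0.22 with library totals, 0.24 with upper-quartile scaling and 0.25 to 0.33 without single libraries. For Tcf1-deficient against p45-deficient cells the large subunit (-0.42) had -0.38 with DESeq2's size factors, -0.36 with library totals, -0.38 with upper-quartile scaling, -0.38 with DESeq2, -0.37 without a filter and -0.45 to -0.33 without single libraries, and the small subunit (-0.34) had -0.28 with library totals and -0.43 to -0.29 without single libraries. For Tcf1-deficient against control cells the large subunit had -0.0622 with library totals, -0.0504 with upper-quartile scaling and -0.0699 to 0.0154 without single libraries, and the small subunit -0.0915 to -0.000195. With every gene weighing the same, the log2 ratio of large to small differed by 0.0575 in p45-deficient against control and by -0.0442 in Tcf1-deficient against p45-deficient cells.

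Signs also turned in members not called in the reported fit. Mrpl4 in Tcf1-deficient against p45-deficient cells had -0.02, but 0.0207 with DESeq2's size factors, 0.0404 with library totals, 0.0229 with upper-quartile scaling, 0.0209 with DESeq2, 0.0318 without a filter, 0.0126 with 2 groups and -0.0949 to 0.0607 without single libraries, and Mrpl24 had -0.0999 to 0.115. Without single libraries, p45-deficient against control cells gave -0.31 to 0.00095 for Mrpl38 and -0.184 to 0.023 for Mrpl24, and Tcf1-deficient against control cells gave -0.89 to 0.12 for Mrps36, -0.81 to 0.12 for Mrpl42 and -0.012 to 0.486 for Mrpl52. Where a genotype kept 1 library, that library was assumed to vary like the others.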
